A study of Mus musculus with 6 samples.

Results

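Solute carriers, the membrane proteins that move small molecules across cell and organelle membranes, were compared between bone marrow RNA of mice that lack the SNORD113-114 cluster and of wildtype mice. The members were the protein-coding genes whose symbol starts with Slc and a number and whose mean level over all 6 libraries was at least 5 CPM (counts of a gene per 1000000 gene counts of its library). They were chosen by this mean level, so their abundance is not a result. The rule kept 163 of 371 protein-coding solute carrier genes, out of 47729 genes in the count table. The 3 libraries labelled Cluster_KO (cluster KO below) and the 3 wildtype libraries are all bulk RNA-seq of bone marrow. The series design gives 3 wildtype and 3 knockout mice, and the labels do not say which animal gave which library. The p-values therefore measure the spread between libraries. The sources used here do not give the extent of the deleted allele, the strain, age or sex, or any sorting of cells. SNORD113-114 names arrays of C/D-type small nucleolar RNA genes in the imprinted Dlk1-Meg3 region of chromosome 12. The series title links the cluster to stem cell self-renewal and translation.

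The number after Slc names a subfamily of related sequence, and most subfamilies share a kind of substrate. Slc25 carriers exchange metabolites, nucleotides, phosphate and cofactors across the inner mitochondrial membrane, Slc35 carriers bring nucleotide sugars into the Golgi and endoplasmic reticulum, and Slc30 and Slc39 carriers move zinc in opposite directions. Amino acids enter cells through several subfamilies, among them heteromeric transporters in which an Slc3 heavy chain holds an Slc7 light chain at the surface. In the bone marrow, carriers of iron, heme precursors and heme serve hemoglobin synthesis in erythroid precursors, while dividing progenitors draw on carriers of amino acids, nucleosides and folate.

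Gene counts per library ranged from 17663369 to 23459168, and a count of 0 allows up to 0.128 to 0.17 CPM (3 counts, counting error only). Rian, the host transcript of the small nucleolar RNA cluster, had 9, 6 and 3 counts in the cluster KO libraries and 11, 5 and 38 counts in the wildtype libraries, which overlap. Poly(A) libraries do not measure the small nucleolar RNAs themselves, so these counts are no check of the labels. Markers of the bone marrow lineages were all detected, with none of the genes in the 9 marker lists at 0 in every library. The 10 B lineage markers summed to 1971 to 2094 CPM in cluster KO and 620.2 to 662 CPM in wildtype, and 7 of 10 were higher by the edgeR test used throughout. The 10 erythroid markers summed to 1013 to 1341 CPM in cluster KO and 1422 to 1774 CPM in wildtype, and 5 of 10 were lower. The 8 megakaryocyte markers summed to 290.2 to 294 CPM in cluster KO and 427 to 522 CPM in wildtype, with 1 higher and 2 lower. The 10 neutrophil markers summed to 10577 to 20060.0 CPM in cluster KO and 6239 to 12044 CPM in wildtype, with 3 higher. The 10 stem and progenitor markers summed to 1359 to 1414 CPM in cluster KO and 1158 to 1186 CPM in wildtype, with 5 higher and 1 lower. Monocyte and macrophage markers summed to 99 to 117 CPM in cluster KO and 76.6 to 89.5 CPM in wildtype (2 of 10 higher). T and NK markers summed to 143 to 165 CPM in cluster KO and 87.9 to 106 CPM in wildtype (2 of 8 higher, Lck and Il7r). The uncalled Cd3d, Cd3g and Ncr1 had log2 fold changes below 0, the uncalled Cd3e and Klrb1c above 0, and Cd8a was not tested. Mast cell and basophil markers summed to 219 to 251 CPM in cluster KO and 168 to 210.2 CPM in wildtype (1 of 6 higher, 1 lower), and stroma and endothelium markers to 46.8 to 139 CPM in cluster KO and 25.5 to 65.8 CPM in wildtype (1 of 8 higher). Over all genes tested, 15.9% were higher and 12.1% lower. Single markers included the globins Hba-a1 (49.9 to 208 CPM over the 6 libraries) and Hbb-bs (64.1 to 317 CPM) and the progenitor marker Kit (243 to 363 CPM). Since any sorting of cells is not given, the sums cannot be read as the composition of whole marrow. The part of these lineage levels in the results on the carriers was not tested, and in bulk RNA fewer cells of a type cannot be told apart from less RNA per cell. Reads outside genes made up 10.05%, 8.59% and 7.29% of the reads in cluster KO libraries 1, 2 and 3, and 10.03%, 10.5% and 11.1% in the wildtype libraries.

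Of the 163 members, 29 were higher in cluster KO, 15 were lower and 119 did not pass the test, which was edgeR's quasi-likelihood test with Benjamini-Hochberg adjustment at 0.05 over all 15686 genes tested. The share of members called, 27.0%, was near the background of 27.9% of all tested genes. By direction, 17.8% of members were higher against a background of 15.9%, and 9.2% were lower against a background of 12.1%. The libraries of the genotypes did not overlap for 75 members, 46.0%, the same as the background of 46.0% of all tested genes. Changes were moderate. The 29 higher members rose 1.32-fold to 2.62-fold, with 7 past 2-fold, and the 15 lower members fell 1.33-fold to 2.47-fold, with 2 past 2-fold. The median log2 fold change of cluster KO over wildtype was 0.01 over the members and 0.00 over all genes tested.

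The count of calls moved with single libraries, among the members as over all genes. It was 61 members (37.4%, beside 35.2% of all genes) without cluster KO 1, 18 (of 163, beside 12.3%) without cluster KO 2 and 33 (20.2%, beside 18.3%) without cluster KO 3. It was 29 (17.8%, beside 20.6%) without wildtype 1, 25 (15.3%, beside 14.5%) without wildtype 2 and 19 (11.7%, beside 13.3%) without wildtype 3. The calls of 13 members held whichever library was left out. Transcript length and GC content moved the split: with smooth trends on both removed from the counts, 18 members were higher and 23 lower (43.9% of calls higher, against 65.9% without that correction). Over all genes the share of calls that were higher went from 56.8% to 46.6%.

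**Figure D1:**
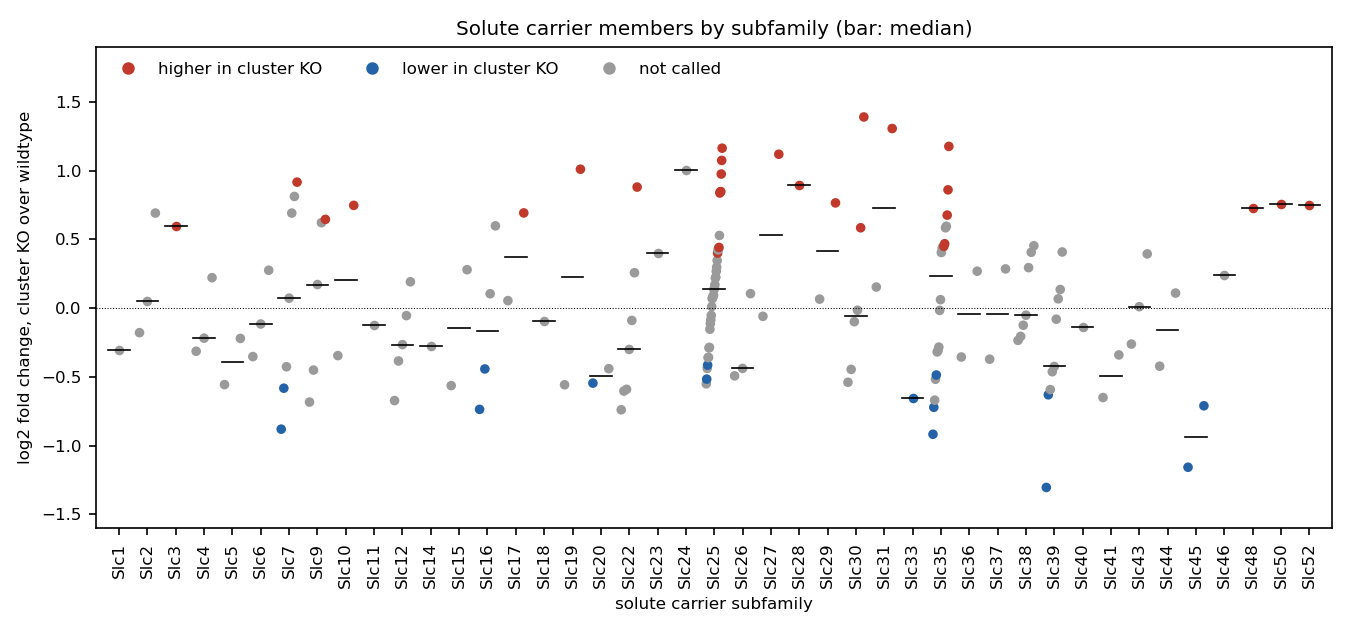
Log2 fold change of cluster KO over wildtype (vertical axis) for the 163 members by subfamily (horizontal axis), 1 point a gene, with the subfamily median as a bar. Higher (29) and lower (15) members lie on both sides of 0 within the large subfamilies Slc7, Slc25 and Slc35, while both Slc45 members and the 2 called Slc39 members are lower.

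The mitochondrial carriers of subfamily Slc25 were the largest group, with 36 members, and took 46.4% of the members' summed CPM. In cluster KO 8 of them were higher (among them Slc25a1, Slc25a4, Slc25a5, Slc25a10, Slc25a11, Slc25a39 and Slc25a53), 2 were lower (Slc25a3 and Slc25a37) and 26 did not pass the test. The share called, 27.8%, was near the background of all genes, and the subfamily's median log2 fold change was 0.14. Leaving out cluster KO 2 left 5 higher and no lower Slc25 members, and leaving out wildtype 3 left 5 and 1. Leaving out wildtype 1 or wildtype 2 left 6 and 1. With length and GC trends removed, 5 were higher and 4 lower. Among the called members, the citrate, dicarboxylate and 2-oxoglutarate/malate carriers were higher and the phosphate carrier was lower. Of all 36 members, called or not, 24 had log2 fold changes above 0 and 12 below.

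Because Slc25a39 and Slc25a1 had the largest rises of the subfamily and Slc25a3 the smallest p among its falls, their promoter windows are printed (RefSeq, GRCm38.p6, 250 bases before to 50 after the start, 5′ to 3′ along the gene). They lie at chr11:102407468-102407767 on the minus strand, chr16:17928170-17928469 on the minus strand and chr10:91123918-91124217 on the minus strand. The Slc25a39 window lies wholly inside the gene span given below, so its RefSeq start is downstream of the 5′ end of that span. Capitals mark letters of 4 motifs, each searched on both strands: the E-box CACGTG, the GC box GGGCGG, the ETS core CCGGAA, and the metal response core TGCACNC or TGCGCNC. The NRF1 core GCGCATGC was searched too and is in none of these windows.
Slc25a39: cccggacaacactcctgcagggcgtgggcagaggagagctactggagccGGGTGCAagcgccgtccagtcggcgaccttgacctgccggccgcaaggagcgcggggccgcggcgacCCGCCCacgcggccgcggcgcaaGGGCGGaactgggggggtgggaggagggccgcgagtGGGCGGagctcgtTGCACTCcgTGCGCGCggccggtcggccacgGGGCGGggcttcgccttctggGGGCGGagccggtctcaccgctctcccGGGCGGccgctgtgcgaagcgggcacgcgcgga
Slc25a1: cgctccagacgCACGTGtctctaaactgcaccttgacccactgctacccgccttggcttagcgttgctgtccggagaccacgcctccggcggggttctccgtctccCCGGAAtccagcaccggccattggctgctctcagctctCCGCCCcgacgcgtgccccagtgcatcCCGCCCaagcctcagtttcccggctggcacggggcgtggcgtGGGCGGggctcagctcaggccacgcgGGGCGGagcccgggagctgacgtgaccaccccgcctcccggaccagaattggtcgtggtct
Slc25a3: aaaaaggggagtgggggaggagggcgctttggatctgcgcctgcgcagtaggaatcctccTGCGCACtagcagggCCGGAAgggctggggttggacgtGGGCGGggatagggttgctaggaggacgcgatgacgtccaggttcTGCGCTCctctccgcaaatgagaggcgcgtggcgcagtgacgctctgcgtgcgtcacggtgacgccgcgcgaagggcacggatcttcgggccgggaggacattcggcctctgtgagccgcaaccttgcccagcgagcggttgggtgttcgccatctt
The Slc25a39 window holds 6 GC boxes and 3 metal response cores and no E-box or ETS core. The Slc25a1 window holds 4 GC boxes, 1 E-box and 1 ETS core, and the Slc25a3 window 1 GC box, 1 ETS core and 2 metal response cores. These matches are letters in a window and show no binding.

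Slc25a39 (ENSMUSG00000018677, chr11:102402985-102407946, minus strand), the carrier that brings glutathione into mitochondria, measured 141, 195 and 225 CPM in the cluster KO libraries and 91.3, 91.1 and 68 in the wildtype libraries. Every cluster KO library lay above every wildtype library (log2 fold change 1.16, SE 0.19, edgeR adjusted p = 0.00322), and the difference kept its value at 1.16 with the length and GC trends removed. Slc25a1 (ENSMUSG00000003528, chr16:17925223-17928219, minus strand), the citrate carrier that exports citrate for fatty acid and sterol synthesis, had 129, 151 and 185 CPM in the cluster KO libraries and 87, 74.5 and 59.4 in the wildtype libraries. Its libraries also did not overlap (log2 fold change 1.07, SE 0.17, edgeR adjusted p = 0.0033). Slc25a11, the 2-oxoglutarate/malate carrier of the malate-aspartate shuttle, was at 219, 265 and 305 CPM in cluster KO against 150.5, 168 and 119.9 in wildtype, again without overlap (log2 fold change 0.85, SE 0.16, edgeR adjusted p = 0.0053). Slc25a10, the dicarboxylate carrier, was at 17.6, 21.9 and 34.8 CPM in cluster KO against 12.2, 14.6 and 11.1 in wildtype (log2 fold change 0.98, SE 0.26, edgeR adjusted p = 0.0195). Among the cluster KO libraries of these 4 carriers, library 1 was the lowest and library 3 the highest. The calls of Slc25a39, Slc25a1 and Slc25a11 held without any 1 library, while that of Slc25a10 was lost without cluster KO 3, wildtype 1 or wildtype 3 (edgeR adjusted p 0.0603 to 0.0821).

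Slc25a53, a carrier without a well-established substrate, was at 24.1, 21.8 and 20.2 CPM in cluster KO against 14.4, 13 and 9.48 in wildtype, and its groups did not overlap (log2 fold change 0.84, SE 0.20, edgeR adjusted p = 0.0144). Its call was lost without cluster KO 2 or wildtype 3 (edgeR adjusted p 0.0541 to 0.0546).

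The ADP/ATP carriers and the phosphate carrier, which together supply the ATP synthase with its substrates, are the most abundant members. Slc25a5, Slc25a3 and Slc25a4 made up 28.5% of the members' summed CPM. Per kilobase of exon, Slc25a5 stood at 714 CPM, Slc25a3 at 164 CPM and Slc25a4 at 112 CPM. Slc25a5, the ADP/ATP carrier of proliferating cells, had 1247, 1309 and 1504 CPM in the cluster KO libraries and 1072, 1012 and 907 in the wildtype libraries. All 3 cluster KO libraries lay above the wildtype ones (log2 fold change 0.44, SE 0.10, edgeR adjusted p = 0.0134). Slc25a5 has a pseudogene of near-identical sequence, so its counts are uncertain. Slc25a4, the ADP/ATP carrier best known from muscle and heart, was at 286, 317 and 299.9 CPM in cluster KO against 241, 251 and 193 in wildtype, also without overlap (log2 fold change 0.40, SE 0.12, edgeR adjusted p = 0.0344).

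Slc25a3 (ENSMUSG00000061904, chr10:91116574-91124059, minus strand), the mitochondrial phosphate carrier, which also brings copper into mitochondria, went the other way. It measured 783, 787 and 766 CPM in the cluster KO libraries and 1005, 1011 and 1096 in the wildtype libraries. The cluster KO libraries spanned a narrow range below all wildtype libraries (log2 fold change -0.41, SE 0.09, edgeR adjusted p = 0.0082). With the length and GC trends removed the fall was larger (log2 fold change -0.77, edgeR adjusted p = 0.00155), whereas the rises of Slc25a5 (log2 fold change 0.18, edgeR adjusted p = 0.127) and Slc25a4 (log2 fold change 0.09, edgeR adjusted p = 0.574) no longer passed the test. Leaving out libraries ended the call of Slc25a3 without cluster KO 2 (edgeR adjusted p = 0.0505). Slc25a5 lost its call without cluster KO 2, wildtype 2 or wildtype 3 (edgeR adjusted p 0.0517 to 0.0599), and Slc25a4 without cluster KO 2, cluster KO 3, wildtype 1, wildtype 2 or wildtype 3 (edgeR adjusted p 0.0612 to 0.134).

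Of the mitochondrial iron and heme carriers, Slc25a37 and Slc25a28 lay below wildtype in every cluster KO library, and Slc25a38 overlapped. Only Slc25a37 was called. Slc25a37 (mitoferrin-1), the iron importer of erythroid mitochondria, had 49, 45.8 and 38.8 CPM in the cluster KO libraries and 62.7, 55.7 and 72.7 in the wildtype libraries. It fell without overlap (log2 fold change -0.52, SE 0.15, edgeR adjusted p = 0.0316), and its call was lost without cluster KO 2, cluster KO 3, wildtype 1, wildtype 2 or wildtype 3 (edgeR adjusted p 0.0512 to 0.124). Slc25a28 (mitoferrin-2), its paralog in other cells, was at 23.3, 19 and 18.7 CPM in cluster KO against 27.8, 27 and 27.8 in wildtype, below wildtype in all libraries, but did not pass the test (log2 fold change -0.44, edgeR adjusted p = 0.0664). Slc25a38, which brings glycine into mitochondria for the first step of heme synthesis, measured 62.2, 66.1 and 87.3 CPM in the cluster KO libraries and 55.1, 65 and 59 in the wildtype libraries, and its groups overlapped (log2 fold change 0.27, edgeR adjusted p = 0.23). Beside these values, the summed erythroid markers were 1013, 1212 and 1341 CPM in cluster KO and 1422, 1606 and 1774 CPM in wildtype, and their part in the carriers' levels was not tested.

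Other uncalled Slc25 carriers include several with textbook roles. Slc25a17, the peroxisomal carrier of coenzyme A and related cofactors, measured 108, 105 and 135 CPM in the cluster KO libraries and 96.5, 87.5 and 73.3 in the wildtype libraries, without overlap, and narrowly missed the threshold (log2 fold change 0.43, edgeR adjusted p = 0.0517). Slc25a40, the paralog of Slc25a39, was at 23.4, 22.6 and 26 CPM in cluster KO against 16.2, 12.2 and 21.5 in wildtype, also without overlap (log2 fold change 0.53, edgeR adjusted p = 0.0937). Slc25a12 and Slc25a13, the aspartate/glutamate carriers of the malate-aspartate shuttle, had log2 fold changes of 0.22 and -0.09. Slc25a20, the carnitine/acylcarnitine carrier, was at 0.15, Slc25a32, the mitochondrial carrier linked to folate and flavin, at 0.35, and Slc25a51, the mitochondrial NAD carrier, at -0.05. Slc25a44, a carrier of branched-chain amino acids, was the lowest of the uncalled ones (log2 fold change -0.55, edgeR adjusted p = 0.0873).

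**Figure D2:**
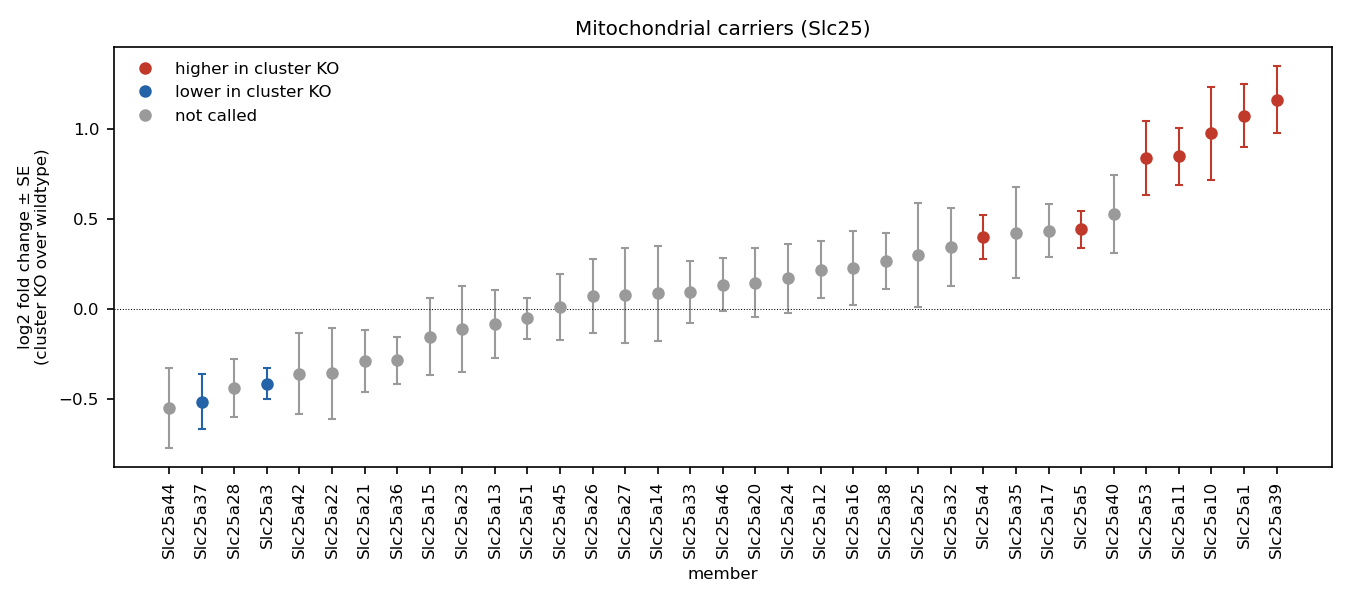
Log2 fold change of cluster KO over wildtype ± SE from the edgeR fit (vertical axis) for 35 of the 36 Slc25 members ordered by value (horizontal axis). The higher members end with Slc25a39 at 1.16, and the lower members Slc25a37 at -0.52 and Slc25a3 at -0.41 lie among uncalled ones with wider error bars.

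Subfamily Slc35, the nucleotide sugar transporters of the secretory pathway and their relatives, had 20 members, of which 5 were higher (Slc35a1, Slc35a5, Slc35b1, Slc35b2 and Slc35b3), 3 were lower (Slc35a3, Slc35c1 and Slc35e2) and 12 did not pass the test. The share called was 40.0% beside the background of 27.9%, with no test of that difference, and the median log2 fold change was 0.23. The counts moved with single libraries: 8 were higher without cluster KO 1, 2 without cluster KO 2, cluster KO 3, wildtype 1 or wildtype 2, and 1 without wildtype 3, and 1 was lower without cluster KO 2. With length and GC trends removed 2 were higher. The 3 called members of the b branch were all higher, and Slc35b4 was uncalled.

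Slc35b2 and Slc35b3 encode the Golgi carriers of PAPS, the sulfate donor of heparan sulfate and other sulfated sugars. Slc35b2 (ENSMUSG00000037089, chr17:45563874-45567671, plus strand) measured 95.1, 141 and 165 CPM in the cluster KO libraries and 67.7, 64.5 and 45 in the wildtype libraries, without overlap (log2 fold change 1.18, SE 0.22, edgeR adjusted p = 0.005). Slc35b3 was at 46.5, 55.8 and 73.4 CPM in cluster KO against 30.4, 40.0 and 26.4 in wildtype, and its groups did not overlap (log2 fold change 0.86, SE 0.21, edgeR adjusted p = 0.014). Slc35b1, an ATP/ADP exchanger of the endoplasmic reticulum, was at 101, 99.4 and 115 CPM in cluster KO against 75.6, 83.9 and 71.9 in wildtype (log2 fold change 0.45, SE 0.12, edgeR adjusted p = 0.0231). Slc35b4, which carries UDP-xylose and UDP-N-acetylglucosamine, had 42.7, 45.2 and 50.5 CPM in the cluster KO libraries and 37.2, 35.2 and 32.1 in the wildtype libraries, above wildtype in every library but without passing the test (log2 fold change 0.41, edgeR adjusted p = 0.057). The call of Slc35b2 held without any 1 library, and that of Slc35b3 was lost without wildtype 3 (edgeR adjusted p = 0.0651). The call of Slc35b1 was lost without cluster KO 2, cluster KO 3, wildtype 1, wildtype 2 or wildtype 3 (edgeR adjusted p 0.0541 to 0.0905). With length and GC trends removed, Slc35b2 still passed (log2 fold change 0.79, edgeR adjusted p = 0.013), but Slc35b3 (adjusted p = 0.051) and Slc35b1 (adjusted p = 0.193) did not.

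In the a branch, Slc35a1, the CMP-sialic acid carrier that serves sialylation, had 89.3, 124 and 124 CPM in the cluster KO libraries and 86.8, 83.9 and 73.4 in the wildtype libraries, a rise without overlap (log2 fold change 0.47, SE 0.15, edgeR adjusted p = 0.0442). Slc35a3, the UDP-N-acetylglucosamine carrier, was at 42, 40.9 and 42 CPM in cluster KO against 65.1, 51.7 and 57.9 in wildtype, a fall without overlap (log2 fold change -0.49, SE 0.14, edgeR adjusted p = 0.0259). Slc35a5, a relative of less certain substrate, rose from a lower level, with 20.7, 22.6 and 31 CPM in the cluster KO libraries and 12.6, 16.2 and 17.8 in the wildtype libraries (log2 fold change 0.68, SE 0.21, edgeR adjusted p = 0.0395). Slc35a2, the UDP-galactose carrier, did not pass the test (log2 fold change -0.28, edgeR adjusted p = 0.304), nor did Slc35a4 (log2 fold change 0.58, edgeR adjusted p = 0.0934). The calls of Slc35a1, Slc35a5 and Slc35a3 were lost without wildtype 1, without wildtype 3 and without cluster KO 2, with adjusted p up to 0.176, 0.131 and 0.105 over the libraries left out. Slc35a1 and Slc35a5 further lost theirs without cluster KO 3 or wildtype 2, and with the length and GC trends removed (adjusted p = 0.4 and 0.0513).

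Slc35c1 carries GDP-fucose into the Golgi, the donor for the fucosylated selectin ligands of leukocytes. It measured 25.3, 19.1 and 19.9 CPM in the cluster KO libraries and 31.9, 40.0 and 34.2 in the wildtype libraries, and all cluster KO libraries were below wildtype (log2 fold change -0.72, SE 0.17, edgeR adjusted p = 0.0137). Slc35c2, a related Golgi protein linked to the fucosylation of Notch, was at 26.6, 44.7 and 53.8 CPM in cluster KO against 28.7, 30.2 and 32.7 in wildtype, with overlap (log2 fold change 0.45, edgeR adjusted p = 0.172). Slc35e2, a member without a settled substrate, had the largest fall of the subfamily, with 23.8, 20.2 and 19.2 CPM in the cluster KO libraries and 39.3, 35.2 and 45 in the wildtype libraries (log2 fold change -0.92, SE 0.16, edgeR adjusted p = 0.00465). The call of Slc35e2 held without any 1 library, and that of Slc35c1 was lost without cluster KO 2 or wildtype 2 (edgeR adjusted p 0.0669 to 0.0686).

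Metal carriers had 22 members, with 4 higher (Slc30a6, Slc30a7, Slc31a2 and Slc48a1) and 2 lower (Slc39a1 and Slc39a8). The share called, 27.3%, was near the background of 27.9% of all genes. Both called Slc30 members, which move zinc out of the cytosol into organelles or out of the cell, were higher, and both called Slc39 members, which move zinc and other metals into the cytosol, were lower. Most members of either subfamily did not pass the test, 4 of 6 in Slc30 and 7 of 9 in Slc39. The median log2 fold change was -0.06 in Slc30 and -0.42 in Slc39. Without cluster KO 2, wildtype 1 or wildtype 3, 1 Slc39 member was lower.

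The promoter windows of Slc30a6 and Slc39a1, the zinc carriers with the largest rise and fall, are printed with the same motifs in capitals (RefSeq, GRCm38.p6). They lie at chr17:74395358-74395657 on the plus strand and chr3:90247942-90248241 on the plus strand.
Slc30a6: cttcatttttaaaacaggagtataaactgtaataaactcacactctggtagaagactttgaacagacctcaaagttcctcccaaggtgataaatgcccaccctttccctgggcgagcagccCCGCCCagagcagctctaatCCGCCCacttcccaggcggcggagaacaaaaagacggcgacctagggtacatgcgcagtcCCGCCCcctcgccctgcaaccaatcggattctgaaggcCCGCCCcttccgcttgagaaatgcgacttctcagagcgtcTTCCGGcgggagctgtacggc
Slc39a1: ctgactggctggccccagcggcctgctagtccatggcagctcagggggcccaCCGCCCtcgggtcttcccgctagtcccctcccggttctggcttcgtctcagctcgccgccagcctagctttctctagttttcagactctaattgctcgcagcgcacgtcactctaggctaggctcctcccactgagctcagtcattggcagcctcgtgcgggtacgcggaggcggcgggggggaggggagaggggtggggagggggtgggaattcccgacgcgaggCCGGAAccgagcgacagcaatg
Each window holds 1 ETS core, with 4 GC boxes in Slc30a6 and 1 in Slc39a1. Neither holds the E-box, the NRF1 core or the metal response core within these letters.

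Slc30a6 (ENSMUSG00000024069, chr17:74395608-74424221, plus strand), a zinc transporter of the early secretory pathway, had the largest rise of all members. It measured 38.2, 55.8 and 63.7 CPM in the cluster KO libraries and 29.7, 14.7 and 15.5 in the wildtype libraries. The lowest cluster KO library was above the highest wildtype library (log2 fold change 1.39, SE 0.29, edgeR adjusted p = 0.00746). Slc30a7, which loads zinc into the Golgi, was at 47.6, 55.2 and 53.6 CPM in cluster KO against 36.1, 30.6 and 37.5 in wildtype, without overlap (log2 fold change 0.58, SE 0.14, edgeR adjusted p = 0.0154). Slc30a5, the partner with which Slc30a6 forms a heteromeric transporter, was at 71.3, 70.4 and 90.2 CPM in cluster KO against 74.3, 78.8 and 95.1 in wildtype, with overlap (log2 fold change -0.10, edgeR adjusted p = 0.656). Slc30a1, the plasma membrane zinc exporter, did not pass the test (log2 fold change -0.54, edgeR adjusted p = 0.162), nor did Slc30a4 (log2 fold change -0.45, edgeR adjusted p = 0.24) or Slc30a9 (log2 fold change -0.01, edgeR adjusted p = 0.941). The call of Slc30a6 held without any 1 library, and that of Slc30a7 was lost without cluster KO 2 or wildtype 2 (edgeR adjusted p 0.0735 to 0.0738).

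Slc39a1 (ENSMUSG00000052310, chr3:90248172-90253612, plus strand), a zinc importer of the plasma membrane, had the largest fall of all members, with 7.63, 4.63 and 4.27 CPM in the cluster KO libraries and 11.8, 13.8 and 15.3 in the wildtype libraries. Its groups were well apart (log2 fold change -1.30, SE 0.27, edgeR adjusted p = 0.00781), and the call held without any 1 library. Slc39a8, an importer of zinc and manganese, was at 16.8, 15.6 and 21 CPM in cluster KO against 29, 23 and 30.5 in wildtype, without overlap (log2 fold change -0.63, SE 0.19, edgeR adjusted p = 0.0318). Its call was lost without cluster KO 2, wildtype 1 or wildtype 3 (edgeR adjusted p 0.0931 to 0.131) and with length and GC trends removed (adjusted p = 0.0544). Slc39a9 (log2 fold change -0.59, edgeR adjusted p = 0.0914) and Slc39a6 (log2 fold change -0.42, edgeR adjusted p = 0.14) did not pass the test. Slc39a10, an importer known from lymphocytes, was at 35.1, 29.5 and 37.8 CPM in cluster KO against 25.6, 31.9 and 40.2 in wildtype, with overlap (log2 fold change 0.07, edgeR adjusted p = 0.819).

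Of the copper carriers, Slc31a2, an intracellular relative of the copper importer, measured 19.5, 19.7 and 21 CPM in the cluster KO libraries and 5.52, 11.6 and 7.28 in the wildtype libraries. The cluster KO libraries were tightly grouped above wildtype (log2 fold change 1.31, SE 0.26, edgeR adjusted p = 0.00691), and the call held without any 1 library. Slc31a1, the main copper importer, was at 54.3, 58.3 and 75.6 CPM in cluster KO against 66.3, 51.7 and 50.9 in wildtype, with overlap (log2 fold change 0.15, edgeR adjusted p = 0.528). The genes are neighbours on chromosome 4, 62316 bases apart.

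Slc48a1, which moves heme from the endolysosome to the cytosol, had the highest level per kilobase of the metal carriers, 38.8 CPM. It was at 109, 135 and 156 CPM in cluster KO against 85.8, 91.2 and 63.9 in wildtype, without overlap (log2 fold change 0.73, SE 0.17, edgeR adjusted p = 0.013). The call was lost without cluster KO 2 or wildtype 3 (edgeR adjusted p 0.0542 to 0.0552), and with length and GC trends removed (adjusted p = 0.113). The iron carriers Slc11a2 (DMT1), which brings iron from the endosome to the cytosol, and Slc40a1 (ferroportin), the iron exporter, did not pass the test. Slc11a2 was at 37, 55.4 and 64.9 CPM in cluster KO against 53.5, 57.8 and 59.8 in wildtype (log2 fold change -0.12, edgeR adjusted p = 0.667). Slc40a1 was at 52.3, 49.5 and 61.8 CPM in cluster KO against 59.2, 52.3 and 68.5 in wildtype (log2 fold change -0.14, edgeR adjusted p = 0.531). Among 20 tested genes of iron handling, 5 were higher and 4 lower, beside the background of 15.9% higher and 12.1% lower over all genes tested. Their median log2 fold change was -0.15. Fth1, the ferritin heavy chain, was lower (log2 fold change -0.31, edgeR adjusted p = 0.0177), and Ftl1, the ferritin light chain, was higher (log2 fold change 0.43, edgeR adjusted p = 0.0259). The transferrin receptor Tfrc did not pass the test (log2 fold change -0.28, edgeR adjusted p = 0.114).

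Amino acid carriers had 26 members in 8 subfamilies, with 2 higher (Slc3a2 and Slc7a4), 2 lower (Slc7a1 and Slc7a5) and 22 that did not pass the test. The share called was 15.4% beside the background of 27.9%, with no test of that difference. Of the heteromeric transporters, the heavy chain Slc3a2 was higher and the light chain Slc7a5 was lower. The uncalled light chains had log2 fold changes in both directions.

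Slc3a2 (CD98), the heavy chain that carries several Slc7 light chains to the surface, had 142, 196 and 203 CPM in the cluster KO libraries and 132, 115 and 110.3 in the wildtype libraries, a rise without overlap (log2 fold change 0.60, SE 0.15, edgeR adjusted p = 0.017). Slc7a5 (LAT1), its light chain for leucine and other large neutral amino acids, went the other way, with 37.7, 32.4 and 29.1 CPM in the cluster KO libraries and 45.7, 51 and 52 in the wildtype libraries (log2 fold change -0.58, SE 0.15, edgeR adjusted p = 0.018). Per kilobase of exon, the mean level was 42.4 CPM for Slc3a2 and 11.1 CPM for Slc7a5. The other light chains among the members did not pass the test. Slc7a6 was below wildtype in all libraries (log2 fold change -0.43, edgeR adjusted p = 0.124), Slc7a8 was above wildtype in all (log2 fold change 0.69, edgeR adjusted p = 0.0525), and Slc7a7 overlapped (log2 fold change 0.81, edgeR adjusted p = 0.0909). The call of Slc3a2 was lost without cluster KO 2, wildtype 2 or wildtype 3 (edgeR adjusted p 0.0733 to 0.0808), and that of Slc7a5 without cluster KO 2, wildtype 2 or wildtype 3 (edgeR adjusted p 0.0686 to 0.0787).

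Slc7a1 (CAT1), the importer of arginine and lysine, measured 29.1, 16.3 and 17 CPM in the cluster KO libraries and 36.4, 36.5 and 42.1 in the wildtype libraries. It fell without overlap (log2 fold change -0.88, SE 0.23, edgeR adjusted p = 0.0182), and the call was lost without cluster KO 2, cluster KO 3, wildtype 2 or wildtype 3 (edgeR adjusted p 0.0524 to 0.0808). Slc7a4, a relative of the cationic carriers whose own transport is uncertain, was at 19.7, 18.6 and 36.3 CPM in cluster KO against 12.1, 15.1 and 12.3 in wildtype (log2 fold change 0.92, SE 0.27, edgeR adjusted p = 0.0283). Cluster KO 3 stood far above the other cluster KO libraries, and without it the log2 fold change of Slc7a4 was 0.54. Its call was lost without cluster KO 3, wildtype 1, wildtype 2 or wildtype 3 (edgeR adjusted p 0.0598 to 0.101), and some of its exon sequence overlaps P2rx6, whose reads cannot be told apart without strand.

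The 7 Slc38 carriers, which take up glutamine and other small neutral amino acids, had no call, with log2 fold changes from -0.23 to 0.45. The background was 27.9% of all genes tested, with no test of that difference. Slc38a5, a glutamine carrier and the amino acid carrier with the highest level per kilobase (56.2 CPM), had 102, 137 and 197 CPM in the cluster KO libraries and 121, 90.9 and 107 in the wildtype libraries. Cluster KO 1 lay within the wildtype range and cluster KO 3 far above it (log2 fold change 0.45, edgeR adjusted p = 0.14). Slc38a2, the carrier known to rise on amino acid shortage, was at 225, 202 and 249 CPM in cluster KO against 232, 237 and 231 in wildtype (log2 fold change -0.05, edgeR adjusted p = 0.762). Slc38a9, the lysosomal arginine sensor of the mTORC1 pathway, was at 39.6, 41.2 and 36.4 CPM in cluster KO against 46, 48.1 and 43.8 in wildtype, below wildtype in all libraries without passing the test (log2 fold change -0.23, edgeR adjusted p = 0.218). Slc1a5, the glutamine importer ASCT2, was at 94.5, 100.4 and 93.3 CPM in cluster KO against 116, 118 and 122 in wildtype, also below wildtype throughout, with an adjusted p just above the threshold (log2 fold change -0.31, edgeR adjusted p = 0.0598). Slc6a6, the taurine carrier, was lower in every cluster KO library as well but not called (log2 fold change -0.35, edgeR adjusted p = 0.101). Among 20 tested genes of the amino acid response, 6 were higher and 2 lower, beside the background of 15.9% higher and 12.1% lower over all genes tested. Their median log2 fold change was 0.07.

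Sugar carriers had 10 members, with 1 higher (Slc50a1) and 2 lower (Slc45a3 and Slc45a4), beside the background of 15.9% higher and 12.1% lower over all genes tested. Slc50a1 (SWEET1), a Golgi sugar transporter, had the smallest adjusted p of all members and the highest level per kilobase of the sugar carriers, 117 CPM. It measured 209, 208 and 227 CPM in the cluster KO libraries and 139, 127 and 116 in the wildtype libraries, and the groups were well apart (log2 fold change 0.76, SE 0.12, edgeR adjusted p = 0.00279). Both Slc45 members, of a subfamily linked to proton-coupled sucrose transport, fell. Slc45a3 was at 3.24, 6.82 and 6.55 CPM in cluster KO against 11.3, 13 and 12.8 in wildtype (log2 fold change -1.16, SE 0.29, edgeR adjusted p = 0.0169). Slc45a4 was at 35.2, 26.4 and 25 CPM in cluster KO against 46.7, 47.1 and 47.9 in wildtype (log2 fold change -0.71, SE 0.16, edgeR adjusted p = 0.0115). Neither overlapped. The call of Slc50a1 held without any 1 library. The call of Slc45a3 was lost without wildtype 2 or wildtype 3 (edgeR adjusted p 0.0612 to 0.0614), and that of Slc45a4 without cluster KO 2 (edgeR adjusted p = 0.0615). Exons of Slc45a3 overlap Gm29103, so part of its reads cannot be assigned without strand.

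The 3 members of the glucose importer subfamily Slc2 were not called, while Slc2a6, under the level threshold, was higher (log2 fold change 1.83, edgeR adjusted p = 0.035). The call of Slc2a6 was lost whichever library was left out. Slc2a1 (GLUT1), the ubiquitous importer, measured 11.9, 13 and 20.1 CPM in the cluster KO libraries and 10.4, 8.21 and 9.22 in the wildtype libraries. All cluster KO libraries were above wildtype, but the test was not passed (log2 fold change 0.69, edgeR adjusted p = 0.059). Slc2a3 (GLUT3) was at 56, 50.2 and 43.3 CPM in cluster KO against 50.1, 57 and 62.2 in wildtype, with overlap (log2 fold change -0.18, edgeR adjusted p = 0.404). Slc2a8 was at 8.63, 13.4 and 17 CPM in cluster KO against 11, 15.1 and 11.7 in wildtype (log2 fold change 0.05, edgeR adjusted p = 0.907). Slc37a4, the glucose 6-phosphate carrier that neutrophils depend on, did not pass the test (log2 fold change 0.29, edgeR adjusted p = 0.28). Among the 20 genes of glycolysis and lactate production, 12 were higher and 3 lower, beside the background of 15.9% higher and 12.1% lower over all genes tested. Their median log2 fold change was 0.60. Aldoa (log2 fold change 1.21, edgeR adjusted p = 0.00248) and Gapdh (log2 fold change 0.89, edgeR adjusted p = 0.00381) were among the higher. The hexokinases Hk1 (log2 fold change -0.65, edgeR adjusted p = 0.00456) and Hk2 (log2 fold change -0.67, edgeR adjusted p = 0.0308) were among the lower. The difference between that list and the sugar carriers was not tested.

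Of the 4 members in the monocarboxylate subfamily Slc16, none was higher and 2 were lower, beside the background of 15.9% higher and 12.1% lower over all genes tested. Among Slc16 genes under the level threshold, Slc16a7 (log2 fold change 1.36, edgeR adjusted p = 0.0367) and Slc16a11 (log2 fold change 1.10, edgeR adjusted p = 0.0205) were higher and Slc16a12 (log2 fold change -2.09, edgeR adjusted p = 0.00354) was lower. The calls of Slc16a7 and Slc16a11, but not of Slc16a12, were lost without cluster KO 2, among other libraries (edgeR adjusted p up to 0.0961 and 0.0992). Slc16a1 (MCT1), the proton-coupled carrier of lactate and pyruvate, had 119, 109.7 and 139.8 CPM in the cluster KO libraries and 176, 151 and 173 in the wildtype libraries, a fall without overlap (log2 fold change -0.44, SE 0.13, edgeR adjusted p = 0.0289). Slc16a10 (TAT1), which carries aromatic amino acids, was at 21.9, 20.4 and 15.5 CPM in cluster KO against 30.9, 29.8 and 35.5 in wildtype, also without overlap (log2 fold change -0.74, SE 0.18, edgeR adjusted p = 0.0145). Of 3 related glycoproteins that partner membrane carriers, Bsg and Emb were higher and Nptn (neuroplastin) did not pass the test (log2 fold change -0.11, edgeR adjusted p = 0.524). Bsg (basigin) was at 520.4, 569 and 664 CPM in cluster KO against 453, 354 and 308 in wildtype (log2 fold change 0.65, edgeR adjusted p = 0.0116). Emb (embigin) was at 198, 213 and 233 CPM in cluster KO against 112, 111 and 107 in wildtype (log2 fold change 0.97, edgeR adjusted p = 0.00122). The mitochondrial pyruvate carrier, whose subunits belong to the solute carriers under other symbols, fell in both parts, Mpc1 (log2 fold change -0.44, edgeR adjusted p = 0.0112) and Mpc2 (log2 fold change -0.54, edgeR adjusted p = 0.014). The call of Slc16a1 was lost without cluster KO 2, wildtype 1, wildtype 2 or wildtype 3 (edgeR adjusted p 0.0572 to 0.142) and that of Slc16a10 without cluster KO 2 or wildtype 3 (edgeR adjusted p 0.051 to 0.0637). With length and GC trends removed Slc16a1 had an adjusted p of 0.226. Slc16a13 was uneven between libraries, with 8.09, 5.22 and 6.37 CPM in cluster KO against 1.76, 8.38 and 2.92 in wildtype (log2 fold change 0.60, edgeR adjusted p = 0.393).

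Carriers of vitamins and nucleosides had 8 members, of which 4 were higher (Slc19a1, Slc28a2, Slc29a1 and Slc52a2) and none was lower, beside the background of 15.9% higher and 12.1% lower over all genes tested. Their median log2 fold change was 0.57. Slc19a1, the reduced folate carrier, measured 45.7, 69.1 and 109 CPM in the cluster KO libraries and 42.2, 33 and 35.7 in the wildtype libraries. Its groups did not overlap, but cluster KO 1 was close to wildtype 1 (log2 fold change 1.01, SE 0.27, edgeR adjusted p = 0.02), and without cluster KO 3 the log2 fold change was 0.64. Slc29a1 (ENT1), the equilibrative nucleoside transporter, had 83, 128 and 170.3 CPM in the cluster KO libraries and 79, 69 and 76.3 in the wildtype libraries, with the same order of cluster KO libraries (log2 fold change 0.77, SE 0.22, edgeR adjusted p = 0.0271). Without cluster KO 3 its log2 fold change was 0.50. Slc28a2, the sodium-coupled purine nucleoside importer, was at 13.7, 12.2 and 16.4 CPM in cluster KO against 7.78, 7.81 and 7.07 in wildtype (log2 fold change 0.90, SE 0.21, edgeR adjusted p = 0.0125). Slc52a2, a riboflavin importer, was at 14.8, 17.1 and 20.7 CPM in cluster KO against 12.6, 9.57 and 9.02 in wildtype (log2 fold change 0.75, SE 0.22, edgeR adjusted p = 0.0287). Neither overlapped. Slc19a2, the thiamine importer, was the 1 member of the group with a value below 0 (log2 fold change -0.56, edgeR adjusted p = 0.123). The call of Slc28a2 held without any 1 library. That of Slc19a1 was lost without cluster KO 2, wildtype 2 or wildtype 3 (edgeR adjusted p 0.054 to 0.0813). That of Slc29a1 was lost without cluster KO 2, cluster KO 3, wildtype 1, wildtype 2 or wildtype 3 (edgeR adjusted p 0.0616 to 0.102), and that of Slc52a2 without cluster KO 2, cluster KO 3, wildtype 2 or wildtype 3 (edgeR adjusted p 0.0834 to 0.107). With length and GC trends removed Slc29a1 had an adjusted p of 0.0588.

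Among the 5 lipid and choline carriers, Slc27a1 (FATP1), which takes up and activates long-chain fatty acids, rose to nearly equal levels in all cluster KO libraries. It had 16.1, 15.7 and 16.2 CPM in the cluster KO libraries and 7.15, 7.08 and 7.84 in the wildtype libraries (log2 fold change 1.12, SE 0.19, edgeR adjusted p = 0.00377), and the call held without any 1 library. Slc33a1, the acetyl-CoA carrier of the endoplasmic reticulum, fell, with 10.6, 13.5 and 16.6 CPM in the cluster KO libraries and 20.9, 18.4 and 24.4 in the wildtype libraries (log2 fold change -0.65, SE 0.21, edgeR adjusted p = 0.0451). Its call was lost without cluster KO 1, cluster KO 2, wildtype 1, wildtype 2 or wildtype 3 (edgeR adjusted p 0.0712 to 0.157), and about 32% of its exon sequence overlaps Gm26850. Slc44a2, a choline transporter-like protein, had the highest level per kilobase of this group (6.24 CPM). It was at 55.1, 57.4 and 56.2 CPM in cluster KO against 51.1, 52.1 and 53.1 in wildtype, with no overlap and a small difference that did not pass the test (log2 fold change 0.11, edgeR adjusted p = 0.534). Mfsd2b, the sphingosine 1-phosphate exporter of red cells and platelets, which has a symbol outside the Slc scheme, was lower (log2 fold change -0.78, edgeR adjusted p = 0.00371), beside lower summed erythroid and megakaryocyte markers, whose part was not tested.

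The phosphate importer Slc20a1, with 10.2 CPM per kilobase the higher of the 2 phosphate carriers, fell. It measured 48.1, 53.8 and 37 CPM in the cluster KO libraries and 65, 62.4 and 75.1 in the wildtype libraries, without overlap (log2 fold change -0.55, SE 0.16, edgeR adjusted p = 0.0333), and its call was lost without cluster KO 2, cluster KO 3, wildtype 1, wildtype 2 or wildtype 3 (edgeR adjusted p 0.051 to 0.124). Slc20a2 was at 12.2, 11.7 and 14.6 CPM in cluster KO against 19.1, 15.5 and 17.4 in wildtype, also below wildtype throughout, but did not pass the test (log2 fold change -0.44, edgeR adjusted p = 0.106). Xpr1, the phosphate exporter, was lower (log2 fold change -0.61, edgeR adjusted p = 0.0239).

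Organic ion and bile acid carriers had 13 members, with 3 higher and none lower, beside the background of 15.9% higher and 12.1% lower over all genes tested. Slc22a18, an orphan organic cation carrier of an imprinted region of chromosome 7, had 8.68, 12.7 and 10.04 CPM in the cluster KO libraries and 5.29, 4.93 and 6.81 in the wildtype libraries, without overlap (log2 fold change 0.88, SE 0.25, edgeR adjusted p = 0.0269). Slc17a9, the vesicular ATP carrier, was at 20.2, 18.6 and 19.3 CPM in cluster KO against 9.82, 14.7 and 11.5 in wildtype (log2 fold change 0.69, SE 0.20, edgeR adjusted p = 0.0276). Slc10a3, an orphan relative of the bile acid carriers, was at 23.9, 39.2 and 44.3 CPM in cluster KO against 25.1, 20.9 and 17.9 in wildtype (log2 fold change 0.75, SE 0.24, edgeR adjusted p = 0.0389). Slc10a3 was the 1 called member whose groups overlapped, since cluster KO 1 lay below wildtype 1. All 3 lost their call with length and GC trends removed (adjusted p = 0.209, 0.108 and 0.16), and exons of Slc10a3 overlap Ubl4a. Single libraries decided them as well. The call of Slc22a18 was lost without cluster KO 2, cluster KO 3, wildtype 1 or wildtype 2 (edgeR adjusted p 0.0516 to 0.121). Slc17a9 lost its call without cluster KO 2, cluster KO 3, wildtype 1 or wildtype 3 (edgeR adjusted p 0.057 to 0.0953), and Slc10a3 without cluster KO 2, cluster KO 3, wildtype 2 or wildtype 3 (edgeR adjusted p 0.114 to 0.143). Slc18a2, the vesicular monoamine carrier, known in marrow from mast cells and basophils, had the highest level per kilobase of the group (23.5 CPM) and overlapped, with 127, 107 and 122 CPM in the cluster KO libraries and 133, 129 and 118 in the wildtype libraries (log2 fold change -0.10, edgeR adjusted p = 0.577). Slc14a1, the urea carrier of red cells, did not pass the test (log2 fold change -0.28, edgeR adjusted p = 0.305).

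The 17 members in the ion and bicarbonate subfamilies had 1 call, Slc9a3r1, which is not a carrier. The share called was 5.88% beside the background of 27.9% of all genes tested, with no test of that difference. The exchangers and cotransporters themselves did not pass the test, among them the cation-chloride cotransporter Slc12a2 (log2 fold change -0.67, edgeR adjusted p = 0.0556). Slc9a3r1 (NHERF1), a scaffold that tethers membrane proteins to ezrin, had 64.4, 72 and 81.1 CPM in the cluster KO libraries and 49.1, 48.3 and 41.6 in the wildtype libraries, without overlap (log2 fold change 0.65, SE 0.14, edgeR adjusted p = 0.00962). The call held without any 1 library but was lost with length and GC trends removed (adjusted p = 0.0815). Another 2 members are named after a partner or neighbour. Slc4a1ap, a binding partner of band 3, was at 17.2, 21.8 and 20.1 CPM in cluster KO against 20.5, 23.7 and 24.6 in wildtype (log2 fold change -0.22, edgeR adjusted p = 0.373). Slc7a6os, on the opposite strand beside Slc7a6, was at 45.5, 43.9 and 53 CPM in cluster KO against 47.3, 47.7 and 40.5 in wildtype (log2 fold change 0.07, edgeR adjusted p = 0.736). Slc24a5 had the highest log2 fold change of the uncalled members (log2 fold change 1.005, edgeR adjusted p = 0.13), at 6.67, 7.45 and 10.5 CPM in cluster KO against 5.61, 5.38 and 1.28 in wildtype, and its exons overlap Myef2.

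**Figure D3:**
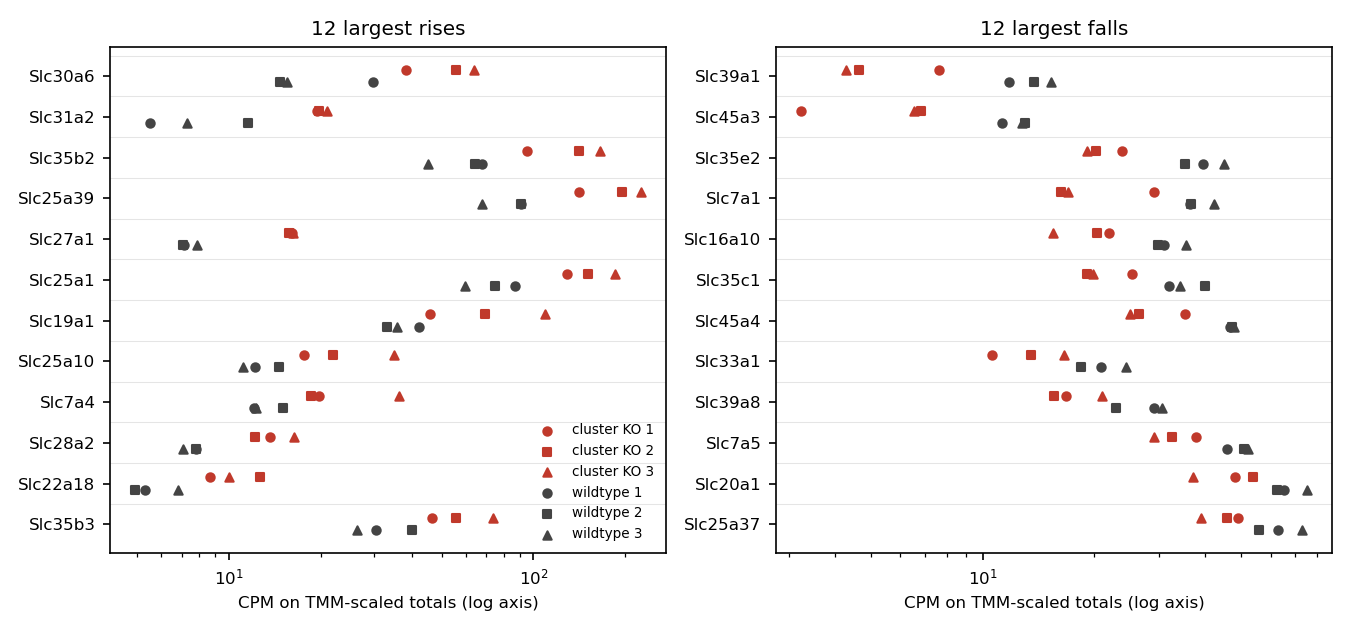
CPM on TMM-scaled totals (horizontal, log axis) in each library for the 12 largest rises (left) and the 12 largest falls (right) among members that passed the test without overlap. Symbols mark the replicate number and colors the genotype; Slc30a6 leads the rises with 38.2 to 63.7 CPM in cluster KO, and Slc39a1 the falls with 4.27 to 7.63 CPM.

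At the edge of the rule, the members just above the threshold were Slc39a14 (mean 5.05 CPM on unscaled totals; 99, 132 and 57 counts in cluster KO against 129, 112 and 105 in wildtype) and Slc38a7 (mean 5.23 CPM; 109, 102 and 174 counts in cluster KO against 113, 85 and 82 in wildtype). Just below it were Slc35d3 (mean 4.99 CPM; 62, 62 and 85 counts in cluster KO against 119, 136 and 148 in wildtype) and Slc9a3r2 (mean 4.91 CPM; 76, 175 and 210 counts in cluster KO against 56, 75 and 43 in wildtype). For 5 members the mean of 1 genotype was under 5 CPM, and none of these was called. Of the 208 genes under the threshold, 50 had no count in any library and 69 were tested. Beside the background of 15.9% higher and 12.1% lower over all genes tested, 4 of the 69 were higher and 3 lower. Chosen after their values were seen, the higher ones were Slc7a11, Slc16a7, Slc16a11 and Slc2a6, and the lower ones Slc16a12, Slc35d3 and Slc39a5. Of these, Slc16a12 kept its call whichever library was left out. Slc2a6 lost its call without cluster KO 1, cluster KO 2, cluster KO 3, wildtype 1, wildtype 2 or wildtype 3 (edgeR adjusted p 0.0542 to 0.14), and Slc39a5 without cluster KO 1, cluster KO 2, cluster KO 3, wildtype 1, wildtype 2 or wildtype 3 (edgeR adjusted p 0.0506 to 0.117). Slc16a7 lost it without cluster KO 1, cluster KO 2, cluster KO 3, wildtype 1 or wildtype 2 (edgeR adjusted p 0.0503 to 0.0961), Slc16a11 without cluster KO 2, wildtype 2 or wildtype 3 (edgeR adjusted p 0.0636 to 0.0992), and Slc35d3 without cluster KO 2, wildtype 2 or wildtype 3 (edgeR adjusted p 0.0726 to 0.0808). Slc7a11, the cystine/glutamate exchanger that feeds glutathione synthesis, had 109, 119 and 69 counts in the cluster KO libraries and 36, 30 and 19 in the wildtype libraries (log2 fold change 1.61, edgeR adjusted p = 0.0121), and its call was lost without cluster KO 2 (edgeR adjusted p = 0.0552).

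The solute carriers nearest to the SNORD113-114 host gene Rian on chromosome 12 fell under the threshold. Slc25a29, a mitochondrial carrier of basic amino acids 0.8 Mb away, had 48, 80 and 65 counts in the cluster KO libraries and 58, 37 and 24 in the wildtype libraries. Slc25a47, the gene beside it, had 21, 62 and 12 counts in the cluster KO libraries and 36, 37 and 59 in the wildtype libraries. Both overlapped between genotypes. The members on chromosome 12 were Slc25a21, Slc38a6 and Slc39a9, at 52.4, 36.2 and 28.9 Mb from Rian, and none was called.

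Higher members had shorter transcripts than lower ones at the median, which was given no test. The median transcript length was 1395 bases for higher members, 2668 bases for lower members and 2539 bases for uncalled ones, against 2004 bases over all genes tested. By length, the 54 shortest members (407.5 to 1680 bases) had 17 higher and 3 lower, the 54 in the middle (1686 to 3094 bases) 9 higher and 6 lower, and the 55 longest (3138 to 10910 bases) 3 higher and 6 lower. The median log2 fold change was 0.20, 0.07 and -0.15 in these groups. Over all genes tested, 15.9% were higher and 12.1% lower, with no split by length. Removing length and GC trends lowered the share of higher calls over all genes too, from 56.8% to 46.6%. The order by length therefore cannot be read as particular to the carriers. Median transcript GC content was 54.7% for higher, 50.8% for lower and 51.7% for uncalled members. The higher members also followed an order of libraries. Cluster KO 3 was the highest library for 23 of 29, and cluster KO 1 the lowest cluster KO library for 22 of 29. This order was not counted over all genes, so it cannot be read as particular to the carriers. Summed over all members, the level was 7981, 8469 and 9501 CPM in cluster KO libraries 1 to 3 and 7906, 7797 and 7683 CPM in the wildtype libraries. The share of reads outside genes had the opposite order in cluster KO, and its part in these values was not tested.

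**Figure D4:**
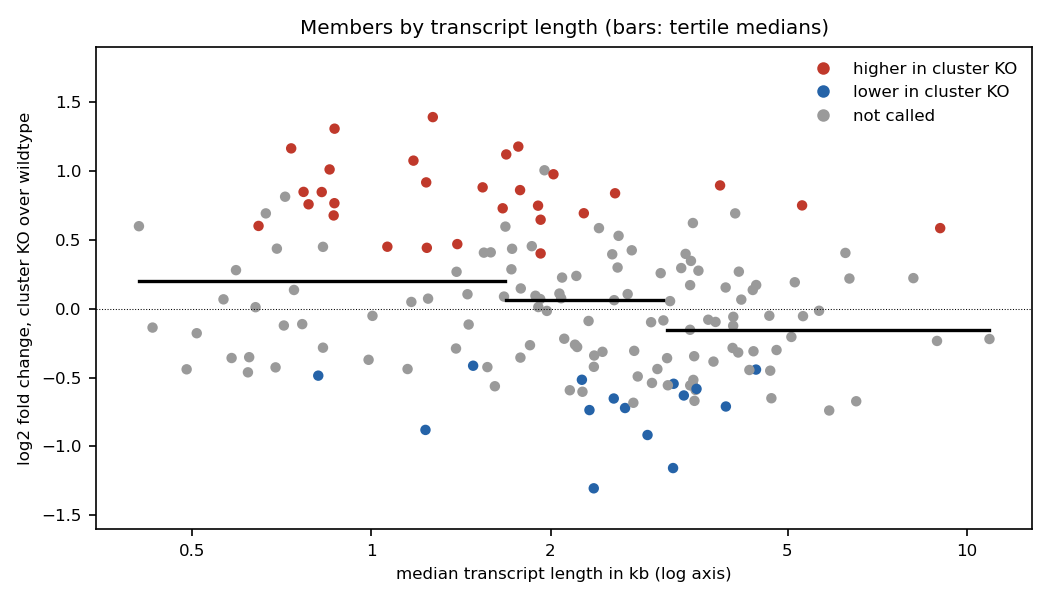
Log2 fold change of cluster KO over wildtype (vertical axis) against median transcript length in kilobases (horizontal, log axis) for the 163 members, with bars at the median of each tertile of length. Higher members cluster among the short transcripts (17 of 29 in the shortest group), and the bars step from 0.20 to -0.15. The same grouping was not made over all genes.

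Promoter windows were found by symbol for 124 of the 163 members (RefSeq, GRCm38.p6, 300 bases). As a group, members' windows were rich in GC, with a median of 62.2% against 52.7% over 27025 genes. The 27025 genes, unlike the members, were not chosen by level. This difference and the shares over all genes that follow therefore cannot be read as a trait of carriers. The GC box was in 74.2% of members' windows against 35.9% of all, the ETS core in 36.3% against 15.2%, the metal response core in 41.9% against 25.6%, and the E-box in 16.1% against 7.24%. Between higher and lower members these shares were 73.9% and 63.6% for the GC box, 43.5% and 27.3% for the ETS core, and 43.5% and 45.5% for the metal response core, over 23 and 11 windows. The E-box was in 3 of 23 and 3 of 11. The NRF1 core was in 0 of 23 windows of higher members, 3 of 11 of lower and 3.33% of the uncalled, against 2.8% of all. These counts are small, were given no test and show letters only.

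Both members were called in 1 of 7 pairs of neighbours within 100 kb, with no such count over all genes. Slc35b2 and Slc29a1, 17529 bases apart on chromosome 17, were both higher, and in both cluster KO 3 was the highest library. In the pairs Slc22a5 and Slc22a4, Slc38a1 and Slc38a2, Slc43a1 and Slc43a3, Slc25a15 and Slc20a2, and Slc7a6 and Slc7a6os neither was called, and of Slc31a2 and Slc31a1 only Slc31a2 was.

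Carriers of solute carrier families that bear other symbols were counted beside the members: of 29 tested, 6 were higher and 7 lower, with a median log2 fold change of 0.07. Ucp2, a mitochondrial carrier of the Slc25 family abundant in blood cells, measured 824, 1077 and 1175 CPM in the cluster KO libraries and 481, 427 and 350.1 in the wildtype libraries, a rise without overlap (log2 fold change 1.29, edgeR adjusted p = 0.00141). Flvcr1, the exporter of heme and importer of choline, was lower, with 21.5, 25.7 and 25.3 CPM in the cluster KO libraries and 37.9, 31.9 and 37.1 in the wildtype libraries (log2 fold change -0.56, edgeR adjusted p = 0.0239). Spns3, a relative of the lysosomal and lipid exporters, was higher (log2 fold change 0.88, edgeR adjusted p = 0.00905), and Spns2, the sphingosine 1-phosphate exporter of endothelium, did not pass the test (log2 fold change 0.07, edgeR adjusted p = 0.742). Among the 10 partner proteins and chaperones of carriers, 5 were higher (Bsg, Emb, Atp1b3, Lamtor1 and Arl6ip5) and none lower, with a median log2 fold change of 0.64. Atp1b3, a beta subunit of the sodium pump whose gradient drives many carriers, was at 318, 388 and 422 CPM in cluster KO against 266, 247 and 218 in wildtype (log2 fold change 0.63, edgeR adjusted p = 0.00775). Of the 16 subunits of the V-ATPase and its relatives, which acidify lysosomes and so drive proton-coupled carriers there, 8 were higher and 1 lower, with a median log2 fold change of 0.31. Over all genes tested, 15.9% were higher and 12.1% lower, with a median of 0.00.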

How the data were processed

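The 6 libraries were bulk poly(A) RNA-seq of mouse bone marrow made with a kit that keeps no strand, per the labels' protocols, so reads of overlapping and antisense genes cannot be told apart. The authors deposited 1 table of raw counts of reads, with a row per Ensembl gene and no normalization. The submitters' processing notes name bcl2fastq, TopHat2, HTSeq and the mm10 build, while versions, annotation release and counting mode are not stated there or in the labels. Neither library sizes nor tests used the HTSeq summary rows. They held on average 13.97% (cluster KO) and 16.42% (wildtype) of reads with several alignments. Reads outside genes were 8.65% and 10.53%, and ambiguous ones 2.77% and 2.93%.

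Groups came from the sample titles. Names, coordinates, lengths and GC content came from the GENCODE annotation of GRCm38, which matched 47310 of 47729 identifiers. Counts were tested with edgeR 4.0.16 in R 4.3.3 (TMM, filterByExpr with a minimum count of 10, robust quasi-likelihood fit, quasi-likelihood F-test, Benjamini-Hochberg adjustment at 0.05 over all 15686 genes tested), after the script was tested on simulated data. The SE of a log2 fold change was its size divided by the square root of F. CPM are on TMM-scaled totals, except in the membership rule, which used the unscaled totals, and CPM per kilobase divides by the length of the merged exons.

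Named genes were the 12 largest rises and falls among called members without overlap, the member of each transport group with the highest level per kilobase, the member with the smallest p in each direction in subfamilies of 8 or more members, the genes at the edge of the threshold, and members named after a partner. Other genes are described from lists of transporter partners, related carriers and pathways, or for their role. The members and lists were chosen with earlier results of these data known. Alternatives were DESeq2 1.42.0, limma-voom (limma 3.58.1), other scalings and filters, other membership thresholds, a replicate block, removal of length and GC trends, and leaving out each library. Values of a few single genes are not reported here.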

Additional observations from a re-analysis of the deposited data

How the results depend on the processing

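The fit was repeated under 13 alternatives. The calls of 11 members held in all of them, among them Slc25a1, Slc25a11, Slc25a39, Slc27a1, Slc30a6, Slc31a2, Slc35b2 and Slc50a1 higher, and Slc35e2 and Slc39a1 lower. Of 533 values of the named genes under an alternative, 425 had the same status as in the main fit. That status includes genes that were uncalled in both. Another 103 lost a call, 5 gained one and 0 reversed. DESeq2 called 56 members, limma-voom 44, library totals 48, RLE factors 45 and the fit without a filter 45. Leaving out 1 library gave 14 to 37 higher and 4 to 24 lower members, 5 to 9 higher and 0 to 3 lower in Slc25, 1 to 8 higher and 1 to 4 lower in Slc35, and 1 to 3 lower in Slc39. With length and GC trends removed, 18 members were higher and 23 lower, 5 and 4 in Slc25, and 2 higher in Slc35. In that fit 25.2% of members were called beside 25.6% of all genes tested. The cause was not tested.

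Deviations of same-numbered libraries from their group means correlated at -0.12, 0.015 and -0.09. For differently numbered libraries the correlations were -0.035 to 0.127. Deviations from the mean of 3 libraries sum to 0, so these values are tied to each other. They cannot decide whether the replicate numbers in the labels pair the libraries. The replicate block gave 11 higher and 5 lower members, 5 and 0 in Slc25, 2 and 1 in Slc35, and 1 lower in Slc39. It called 9.82% of members beside 14.0% of all genes tested, with no test of that difference. With 3 libraries a genotype the median SE of a member's log2 fold change was 0.21, which limits what could be called.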
